A study of Mus musculus with 6 samples.

Results

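The genes described here encode enzymes of glycolysis, with the muscle form of enolase among them. They were chosen as a list of 10 symbols (Hk2, Pfkl, Aldoa, Tpi1, Pgk1, Pgam1, Eno1, Eno3, Pkm and Ldha), and every probe set of the array annotated to a single one of them was taken. No probe set was annotated to Eno1 alone, so 9 genes with 12 probe sets remained, of 8251 genes and 12422 probe sets in all. One of the 12, the second probe set of Hk2, read between 2.6 and 9.5 on the 6 arrays and lay below the filter on dim probe sets, which left 11 tested, covering all 9 genes. The second probe set of Aldoa and that of Pkm were tested too, and the brighter one stands for the gene.

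Glycolysis splits glucose into pyruvate in a fixed order of steps. Hexokinase (Hk2) traps glucose in the cell, phosphofructokinase (Pfkl, the liver-type subunit) commits it to the pathway, aldolase (Aldoa) cuts the sugar and triosephosphate isomerase (Tpi1) interconverts the resulting trioses. Phosphoglycerate kinase (Pgk1), phosphoglycerate mutase (Pgam1, the brain-type or ubiquitous form), enolase (Eno3, the muscle beta form) and pyruvate kinase (Pkm) then recover ATP, and lactate dehydrogenase (Ldha) turns pyruvate into lactate and restores NAD+. Proliferating cells generally run this pathway hard, and several of its genes are known targets of the transcription factors HIF-1 and MYC. During muscle differentiation the beta form of enolase is known to replace the ubiquitous alpha form.

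RNA came from C2AS12, a C2-derived line of mouse myoblasts. All cultures, at both times, had been infected with a recombinant adenovirus that encodes p300, which acetylates histones and acts as a coactivator of transcription. The 3 treatments were wild-type p300 together with doxycycline, p300 in a mutant form, and wild-type p300 alone, each with 1 array after 24 h in low-serum differentiation medium and 1 array at 0 h, before that medium was added. According to the submitters the doxycycline and mutant treatments end in apoptotic death and wild-type p300 alone in survival; the labels name neither the mutation nor the action of doxycycline in these cells, and no uninfected array was used here. Values are the deposited array signals on a linear scale, and the median signal of an array was 68.7 to 78.05. All 13 myoblast and muscle markers looked up had a probe set, and the determination factor Myod1 read 419.1 to 813.0, while of 9 macrophage and leukocyte markers with a probe set 4 exceeded the floor of 16.4 on some array: Cd14 read 322.4 to 416.6, Cd68 103.9 to 173.0, and Csf1r and Cd79a at most 76.9 and 70.5. The other 5, with the general leukocyte gene Ptprc (at most 15.9) and Itgam (at most 7.9) among them, stayed under it. The summed signal of those 9 markers was 556.2 to 635.1 at 24 h, against 671.4 to 760.7 at 0 h. The series' design text calls the 6 samples biological replicates, but each treatment and time has 1 array. The p-values therefore rest on the spread among treatments, which limma draws toward a trend over all probe sets tested. They do not measure a gene's own spread alone, and precision is limited by how few arrays there are.

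The stretches below, the 250 bases upstream of the RefSeq start (the most upstream one where a gene has several) in GRCm38.p6, belong to the 5 genes whose signal fell over 24 h and are shown because these genes moved together. They lie at chr6:124814159-124814408 (minus strand) for Tpi1, chrX:106186850-106187099 (plus strand) for Pgk1, chr19:41911621-41911870 (plus strand) for Pgam1, chr11:70656926-70657175 (plus strand) for Eno3 and chr7:46845554-46845803 (plus strand) for Ldha, and are written 5′ to 3′ on the gene's strand. Capitals mark ACGTG on either strand, a form of the core of the hypoxia response element. Other forms of that core were not searched. The E-box CACGTG, bound by MYC and related factors, contains ACGTG on both strands and so counts as 2 matches.
Tpi1: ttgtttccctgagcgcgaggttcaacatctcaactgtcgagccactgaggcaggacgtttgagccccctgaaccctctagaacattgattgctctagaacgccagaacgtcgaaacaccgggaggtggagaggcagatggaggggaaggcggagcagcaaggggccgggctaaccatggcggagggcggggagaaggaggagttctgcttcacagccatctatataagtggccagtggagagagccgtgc
Pgk1: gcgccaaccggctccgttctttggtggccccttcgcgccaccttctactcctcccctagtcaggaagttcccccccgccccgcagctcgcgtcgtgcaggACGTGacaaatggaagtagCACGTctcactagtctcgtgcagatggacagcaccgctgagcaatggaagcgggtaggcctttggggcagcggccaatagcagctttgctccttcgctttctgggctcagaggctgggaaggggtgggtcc
Pgam1: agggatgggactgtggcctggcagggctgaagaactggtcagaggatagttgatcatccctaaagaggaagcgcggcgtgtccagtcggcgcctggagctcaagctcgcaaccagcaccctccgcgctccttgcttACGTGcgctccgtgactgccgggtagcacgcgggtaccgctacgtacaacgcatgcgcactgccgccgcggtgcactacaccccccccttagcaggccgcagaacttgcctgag
Eno3: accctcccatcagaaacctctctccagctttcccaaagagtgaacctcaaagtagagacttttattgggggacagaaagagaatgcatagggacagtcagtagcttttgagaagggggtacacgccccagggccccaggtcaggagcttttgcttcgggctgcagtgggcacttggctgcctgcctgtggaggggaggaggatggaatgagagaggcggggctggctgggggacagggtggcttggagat
Ldha: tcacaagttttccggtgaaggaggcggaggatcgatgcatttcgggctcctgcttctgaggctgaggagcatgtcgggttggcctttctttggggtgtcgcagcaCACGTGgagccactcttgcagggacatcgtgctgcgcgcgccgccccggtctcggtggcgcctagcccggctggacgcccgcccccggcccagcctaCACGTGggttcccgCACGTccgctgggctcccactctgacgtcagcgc

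The 5 genes did not all hold these letters. Ldha held 5 matches to ACGTG, which include 2 E-boxes CACGTG, Pgk1 held 2 matches and Pgam1 held 1, while Tpi1 and Eno3 held 0 in this window. Hk2, whose change over time did not pass the test, held 2. Over all 9 genes 4 had a match, against 16.5% of the 27018 upstream windows of the same length in the table; CACGTG was in 1 of 9, against 6.04% of the windows. The myogenic E-box CAGCTG was in 1 of the 9, Pkm, against 12.7%, and the GC box GGGCGG in 5 of 9 against 33%. All were searched on both strands.

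Arrays taken at 24 h were set against those at 0 h to see the effect of a day in differentiation medium. The signals of Pgam1, Eno3, Ldha, Tpi1 and Pgk1 fell, to between 58.2% and 76.2% of their level at 0 h, and none of the 9 enzymes rose. The other 4, Hk2, Pfkl, Aldoa and Pkm, did not pass the test. By limma with Benjamini-Hochberg adjustment over 6212 probe sets, 5 of 9 were lower, against 9.33% of the 4822 genes tested, and 0 of 9 higher, against 7.67%. Their median log2 change was -0.39, against 0.01 over all genes. The members and the lists given further on were chosen with earlier results of these data known. The shares set beside all genes are therefore a description. In these bulk samples fewer cells of a type and less RNA per cell cannot be told apart.

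Pgam1, which moves the phosphate group of phosphoglycerate, read 992.4 with doxycycline, 1186.5 with mutant p300 and 1186.5 with wild-type p300 at 24 h, against 1902.5, 2001.9 and 1857.0 in the same order at 0 h. All 3 arrays at 24 h lay far below all 3 at 0 h. Its log2 change was -0.78 ± 0.15 (mean and SD over the treatments, n = 3; adjusted p = 0.00117 by limma), a level of 58.2% of that at 0 h.

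Eno3, the enolase of adult skeletal muscle, read 1405.2 with doxycycline, 1418.4 with mutant p300 and 1126.5 with wild-type p300 at 24 h, against 2239.3, 2108.3 and 2112.3 at 0 h. The groups did not overlap, and the wild-type array was the lowest at 24 h. No probe set was annotated to Eno1 alone, and whether the Eno3 probe set also reads Eno1 was not looked at. The log2 change was -0.72 ± 0.17 (SD, n = 3; limma adjusted p = 0.00217), and by treatment it was -0.67 with doxycycline, -0.57 with mutant p300 and -0.91 with wild-type p300.

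Ldha, the lactate-forming subunit of lactate dehydrogenase, read 2529.9 with doxycycline, 2175.6 with mutant p300 and 2339.1 with wild-type p300 at 24 h, against 3862.3, 3701.2 and 3834.4 at 0 h. The 3 treatments lay close together at each time, and the times did not overlap. The log2 change was -0.70 ± 0.08 (SD, n = 3; limma adjusted p = 0.00194).

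Tpi1 and Pgk1, on either side of the Gapdh step, fell less. Tpi1 read 2041.3, 2190.4 and 2238.2 with doxycycline, mutant and wild-type p300 at 24 h, against 3071.4, 3165.4 and 3066.0 at 0 h, a log2 change of -0.52 ± 0.07 (SD, n = 3; limma adjusted p = 0.0062). Pgk1, which makes the first ATP that glycolysis recovers, read 2012.4, 2110.3 and 2459.1 at 24 h, against 2639.1, 2969.1 and 3007.6 at 0 h, a log2 change of -0.39 ± 0.10 (adjusted p = 0.0249). In both genes every array at 24 h lay below every array at 0 h.

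**Figure D1:**
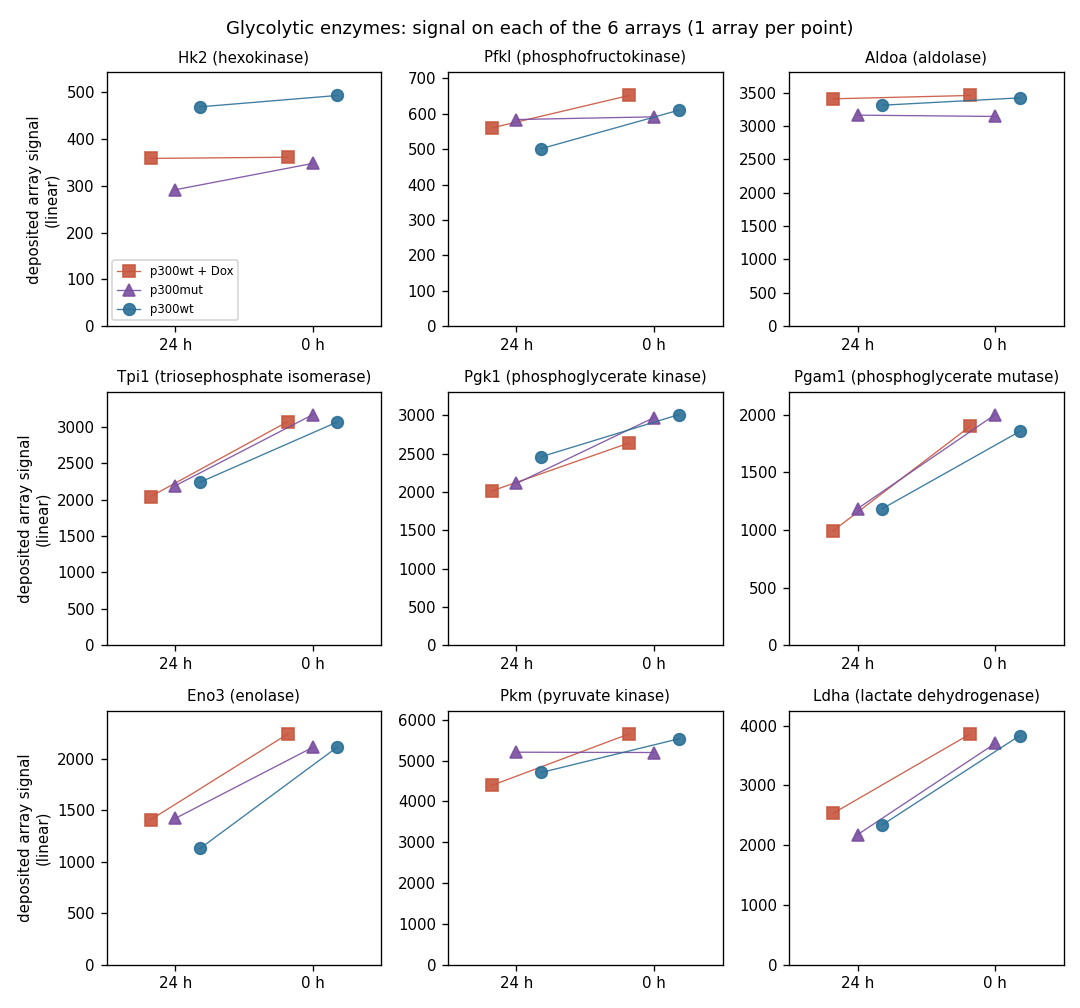
Deposited signal (linear, y axis from 0, own scale in each panel) of the 9 glycolytic enzymes by brightest probe set at 24 h and 0 h, 1 array for each point, lines joining the arrays of a treatment. For Tpi1, Pgk1, Pgam1, Eno3 and Ldha all points at 24 h lie below all points at 0 h, whereas Aldoa is flat and Hk2 parts the wild-type arrays from the others at both times.

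Of the other 4 enzymes, Aldoa changed least. It read 3406.2, 3161.5 and 3310.5 with doxycycline, mutant and wild-type p300 at 24 h, against 3456.5, 3142.2 and 3420.6 at 0 h, a log2 change of -0.02 ± 0.03 (SD, n = 3; adjusted p = 0.915) that was 0.07 after quantile normalization. Its second probe set differed, at 1486.0, 1365.8 and 1405.2 against 1690.3, 1715.9 and 1667.5, which did not overlap, with a log2 change of -0.25 ± 0.07 (adjusted p = 0.0853). Both have the suffix _f_at, which marks probes shared within a family of sequences, so neither can be tied to Aldoa alone.

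Pkm, the pyruvate kinase of muscle and most growing cells, read 4391.8, 5207.0 and 4709.4 at 24 h, against 5656.4, 5198.8 and 5534.4 at 0 h, and with mutant p300 the values at both times were nearly equal. Its log2 change was -0.20 ± 0.19 (SD, n = 3; adjusted p = 0.271), and that of its second probe set was -0.22 ± 0.11 (adjusted p = 0.149). Whether these probe sets separate the M1 and M2 splice forms was not looked at. Both have a suffix for shared probes, _s_at for the brighter and _f_at for the second. Pfkl read 560.2, 583.9 and 501.5 at 24 h, against 651.9, 591.5 and 610.2 at 0 h; these groups did not overlap, but the change of -0.17 ± 0.14 did not pass (adjusted p = 0.262). For Hk2 the log2 change was -0.11 ± 0.13 (adjusted p = 0.503). In all, the arrays of the 2 times did not overlap in 6 of the 9 enzymes, with the 24 h arrays the lower, against 15.7% of all genes.

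Each treatment on its own gave a median fall, but the enzyme that fell most differed. It was Pgam1 with doxycycline (-0.94), Ldha with mutant p300 (-0.77) and Eno3 with wild-type p300 (-0.91). The median log2 change of the 9 enzymes was -0.39 with doxycycline, -0.49 with mutant p300 and -0.29 with wild-type p300, against 0.03, 0.00 and -0.01 over all genes. The change lay below 0 for 9 of 9 with doxycycline, 7 of 9 with mutant p300 and 9 of 9 with wild-type p300. The enzymes at or above 0 with mutant p300 were Aldoa at 0.01 and Pkm at 0.00. The test of the difference in change between the dying treatments and wild-type p300 called 0 of 9 enzymes and 0% of all genes by limma, with 0 of 9 and 3.24% at an unadjusted p under 0.05. The widest gap was that of Eno3, 0.28 ± 0.22 (log2, standard error), the fall being larger with wild-type p300. The test of the difference in change did not pair the arrays of a treatment, so differences between treatments at each time entered its error.

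The calls differed in how much they rested on single arrays. Pgam1, Eno3 and Ldha stayed past the threshold when any 1 array was left out; Tpi1 did not without either doxycycline array (adjusted p = 0.0587 without the one at 0 h and 0.0608 without the one at 24 h), nor did Pgk1 without either doxycycline array (0.124 and 0.126) or either mutant array (0.0762 and 0.0725). With no filter on dim probe sets limma called 0 of 12422 probe sets, and the adjusted p of these 5 enzymes was 0.0975 to 0.161.

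The 5 enzymes that fell are bright, with mean signals of 1521 to 3074. Among the 511 genes with a mean signal at or above 1000 (a limit added after the values were seen) limma called 11.4% lower. Other measures differed too. The summed signal of the 13 myoblast and muscle markers was 4574.4 to 7118.8 at 24 h, against 2498.3 to 3103.1 at 0 h, and that of the macrophage and leukocyte markers was lower at 24 h, as given above. The actin controls gave a 3′ over 5′ signal ratio of 1.45 with doxycycline, 1.49 with mutant p300 and 1.33 with wild-type p300 at 24 h, against 1.30, 1.34 and 1.33 at 0 h, so it was higher at 24 h in the dying treatments and not with wild-type p300. The same ratio of the Gapdh controls was 0.859, 0.905 and 0.875 at 24 h, against 0.855, 0.856 and 0.867 at 0 h. With doxycycline it hardly differed between the times. Their part in the fall of the enzymes was not tested.

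Across the 6 arrays the enzymes that fell ran in parallel. Tpi1 and Pgam1 had a Pearson r of 0.997, Tpi1 and Ldha 0.947 and Eno3 and Ldha 0.940, while Pgk1 and Eno3 had 0.709. This was not particular to them, as Pfkl and Eno3 had 0.896 and Pgam1 and Pkm 0.836. The median over the 36 pairs of enzymes was 0.68. All points share the same arrays and the step between the times, so these values are a description. The r of Hk2 to the others ran from -0.28 with Pfkl to 0.52 with Aldoa, and that of Aldoa from 0.02 with Pgam1 to the same 0.52. The genes whose log2 signal was most like that of Eno3, of 3107 with a log2 range of at least 0.5, were Rad21, a cohesin subunit (r = 0.999), Kif20a, a kinesin of cytokinesis (0.996), and Coq3, an enzyme of ubiquinone synthesis (0.995). Those most like Ldha were Spdl1 (0.999) and Kif2c (0.998), both of the mitotic spindle, and G3bp1 (0.995), over 6 arrays in each case.

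The remaining enzymes and isoforms of the pathway were looked up from a list of 18 genes, of which 7 were tested. Of these 2 fell, against 9.33% of all genes, and 0 rose, and the median log2 change of the 7 was -0.24. Hk1, the housekeeping hexokinase, read 2005.0, 2943.0 and 2389.7 with doxycycline, mutant and wild-type p300 at 24 h, against 3540.7, 3524.3 and 3488.2 at 0 h, a change of -0.54 ± 0.28 (SD, n = 3; adjusted p = 0.0186) that was not called without either doxycycline array (adjusted p = 0.134 and 0.140). Pklr, the pyruvate kinase of liver and red cells, read 26.7, 21.2 and 82.9, against 113.3, 100.1 and 131.1, a change of -1.66 ± 0.87 (adjusted p = 0.0125) on a probe set with shared probes, and it was not called without any 1 of the doxycycline or mutant arrays (0.0607 to 0.104). The other Pklr probe set read 5.3 to 23.8 and was too dim to be tested, so the Pklr value cannot be tied to that isoform.

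Gapdh is on the array as control probe sets, which were kept out of the fit. The one nearest its 3′ end read 6252.6, 7069.3 and 6331.1 at 24 h, against 7773.2, 7102.4 and 7594.1 at 0 h. That is a log2 change of -0.19 ± 0.16 (SD, n = 3) with no test, and the 24 h arrays were all below the 0 h arrays. The bright Gapdh controls of the 5′ end and the middle changed by -0.23 ± 0.12 and -0.26 ± 0.13, also without overlap. Eno2, the neuronal enolase, had a positive value, at 231.2, 268.4 and 219.1 against 161.4, 197.3 and 187.8, a change of 0.40 ± 0.15 that did not pass (adjusted p = 0.0649). Pfkm, the muscle phosphofructokinase subunit, changed by 0.15 ± 0.16 (limma adjusted p = 0.393). Pfkp, the platelet type, changed by -0.73 ± 0.99 (limma adjusted p = 0.171) in its brighter probe set and by -0.51 ± 0.87 (0.299) in its second. Pgam2, the muscle mutase, read 1.7 to 9.8 and stayed under the floor of 16.4 on all arrays, and Ldhb and Aldoc were also too dim to be tested, at 38.5 to 52.4 in the brighter Ldhb probe set and 11.4 to 35.6 for Aldoc. Gpi1, the isomerase of the second step, had no probe set annotated to it alone.

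**Figure D2:**
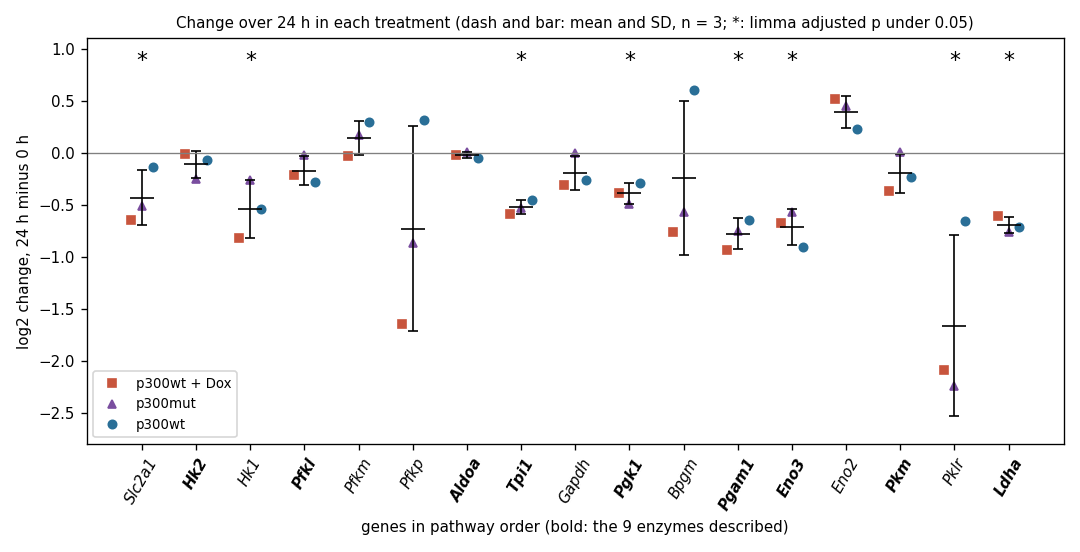
Log2 change from 0 h to 24 h (y axis) of glycolytic genes in pathway order, 1 point for each treatment, dash and bar for the mean and SD of the 3 changes; Gapdh is a control probe set and was not tested. The points of Tpi1, Pgk1, Pgam1, Eno3 and Ldha all lie below 0, those of Pfkp and Pklr spread widely, and those of Eno2 all lie above 0.

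Most of the tested muscle genes, with which Eno3 is usually grouped, moved the other way. Of 24 genes of muscle energy supply and late differentiation 14 were tested, of which 10 rose, against 7.67% of all genes, and 0 fell, and the median log2 change of the 14 was 1.002. Tnnt1, slow troponin T, rose by 2.70 ± 0.43 in its brighter probe set, Myl1, a fast myosin light chain, by 2.68 ± 0.50, Myog, the factor of late myogenesis, by 2.20 ± 0.04, and Ryr1, the calcium release channel, by 1.91 ± 0.31 (SD, n = 3 each; adjusted p of 3.61e-05 to 0.00108 by limma). The second tested probe set of Tnnt1 did not pass, at 167.1, 87.5 and 127.4 with doxycycline, mutant and wild-type p300 at 24 h, against 108.2, 100 and 102.7 at 0 h (change 0.25 ± 0.41, limma adjusted p = 0.442). The brighter probe set of Tnnt1, which rose, is one with shared probes (suffix _s_at), and the second has no such suffix. In their brightest probe sets Tnnt1 and Myl1 had their highest signal at 24 h with doxycycline, at 548.8 and 2374.4, whereas Eno3 was lower at 24 h in every treatment. The 4 that did not pass were Ckb (log2 change 0.14), Pfkm (0.15) and Ak1 (-0.19), all of energy metabolism, and Myod1 (0.06). The muscle creatine kinase gene Ckm was too dim to be tested. Its brighter probe set read 35.9, 11.4 and 41.2 with doxycycline, mutant and wild-type p300 at 24 h, against 48.4, 41.6 and 52.5 at 0 h. Every 24 h array was thus below every 0 h array.

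Genes around glycolysis were counted from lists of the same kind. In the pentose phosphate pathway, the branch that yields NADPH and ribose, 3 of 5 tested genes fell, against 9.33% of all genes, and 0 rose: Tkt, transketolase, by 0.98 ± 0.69, Taldo1, transaldolase, by 0.64 ± 0.36, and Pgd, phosphogluconate dehydrogenase, by 0.55 ± 0.23 on the log2 scale (SD, n = 3 each; limma adjusted p = 0.0218, 0.0175 and 0.0103). For Tkt the change was -0.58 without either wild-type array, still called. Taldo1 was not called without any 1 of the doxycycline or mutant arrays (adjusted p = 0.0936 to 0.112), nor Pgd without either mutant array (0.0808 and 0.0769). Of 2 tested genes of glucose uptake and lactate export 1 fell, against 9.33% of all genes. The glucose transporter Slc2a1 fell by 0.43 ± 0.26 (adjusted p = 0.046, and 0.202 to 0.225 without any 1 of the doxycycline or mutant arrays), and Bsg, the chaperone of lactate transporters, changed by -0.14 ± 0.14.

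Of 12 tested HIF-1 regulators and hypoxia targets 3 fell, against 9.33% of all genes, and 0 rose, against 7.67%, and the median of the 12 was -0.01. Those that fell were Higd1a by 0.76 ± 0.21, Slc2a1, and Ddit4, an inhibitor of mTOR signalling, by 0.39 ± 0.21 (adjusted p = 0.0439 to 0.047), and each was lost under at least 8 of the alternatives tried. The brighter of 2 probe sets annotated to Hif1a, both with the suffix _f_at and so not tied to it alone, read 3018.2, 2668.4 and 3033.2 at 24 h, against 2965.5, 2651.7 and 2998.5 at 0 h (change 0.02 ± 0.01; adjusted p = 0.925). Of 7 tested genes of MYC and other regulators of the pathway 1 rose, against 7.67% of all genes, and the other 6 did not pass. It was Mxd4, a partner of MAX that opposes MYC, which rose by 0.42 ± 0.10 (adjusted p = 0.015). The call was lost without any 1 of the doxycycline or mutant arrays (0.0658 to 0.103). Myc had a mean signal below the filter and read 48.1, 53.0 and 93.1 at 24 h, against 78.3, 77.3 and 94.1 at 0 h.

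**Figure D3:**
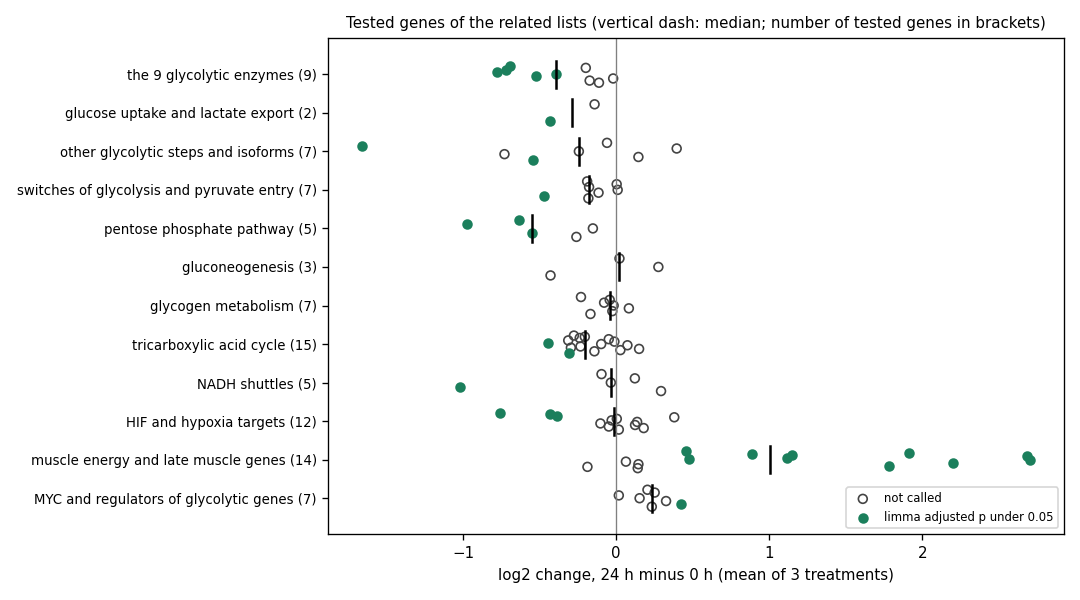
Mean log2 change from 0 h to 24 h (x axis) of each tested gene in the list of glycolytic enzymes and in the lists around it, filled where limma's adjusted p was under 0.05, with the median of each list as a dash. The medians of the glycolytic enzymes (-0.39) and the pentose phosphate genes (-0.55) lie left of 0, and that of the muscle genes (1.002) right of it, although 1 muscle gene, Ak1, lies at -0.19.

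The treatments that end in death were then set against wild-type p300, to see whether the enzymes go with the outcome. By limma 0 of the 9 enzymes were called at 24 h, against 0.83% of all genes, and 1 of 9, Hk2, at an unadjusted p under 0.05, against 11.8%. At 0 h the counts were 0 of 9 and, again for Hk2, 1 of 9, against 0% and 4.48% of all genes. The median log2 difference of the 9 (mean of doxycycline and mutant minus wild type) was -0.01 at 24 h and -0.02 at 0 h, against 0.05 and 0.02 over all genes. The fit takes the single wild-type array of a time to vary as the other treatments do. A p-value that misses the threshold does not show that the levels were alike. At 24 h the 3′ over 5′ ratio of the actin controls was higher in both dying treatments (1.45 and 1.49) than with wild-type p300 (1.33). That of the Gapdh controls was lower with doxycycline (0.859) and higher with mutant p300 (0.905) than with wild-type p300 (0.875). The part of these ratios in the 24 h differences was not tested.

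Hk2, the hexokinase that growth signals usually induce, gave the widest difference of the list at both times. It read 358.8 with doxycycline and 291.8 with mutant p300, against 469.2 with wild-type p300, at 24 h, and 361.4 and 348.1 against 493.5 at 0 h. All 4 arrays of dying treatments lay below both wild-type arrays, a pattern whose share over all genes was not counted. The log2 difference was -0.54 ± 0.20 at 24 h (standard error; limma adjusted p = 0.337) and -0.48 ± 0.20 at 0 h (adjusted p = 0.999). Over both times with time as a term it was -0.51 ± 0.13 (adjusted p = 0.129), in a fit that takes the arrays of a treatment as independent and called 0 of the 9 enzymes, against 0.56% of all genes; at an unadjusted p under 0.05 it held 1 of 9, Hk2, against 14%. Its coefficient of variation over the 3 treatments was 24.0% at 24 h and 20.0% at 0 h, against 3.75% to 12.5% and 1.80% to 7.05% for the other 8 enzymes.

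Eno3 and Pgk1 had the next widest differences at 24 h, in opposite directions. Eno3 was above wild type by 0.32 with doxycycline and by 0.33 with mutant p300 on the log2 scale (mean difference 0.33 ± 0.15, standard error; adjusted p = 0.476), against 0.04 ± 0.15 at 0 h, and Pgk1 was at -0.29 and -0.22 (-0.25 ± 0.16; adjusted p = 0.615). Scaling the arrays to 9 spike-in controls shifted the median of all genes in this comparison by -0.37. It set Eno3 to -0.04, which is 0.33 relative to the shift. With that scaling Hk2 at -0.90 (adjusted p = 0.0323) and Pgk1 at -0.62 (adjusted p = 0.0239) were called, which is -0.54 and -0.25 relative to the shift. Pfkl differed by 0.19 (-0.18 with that scaling, again 0.19 relative to the shift) and Tpi1 by -0.08. For Aldoa, Pgam1, Pkm and Ldha the doxycycline and mutant arrays did not lie on one side of wild type, or one equalled it.

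**Figure D4:**
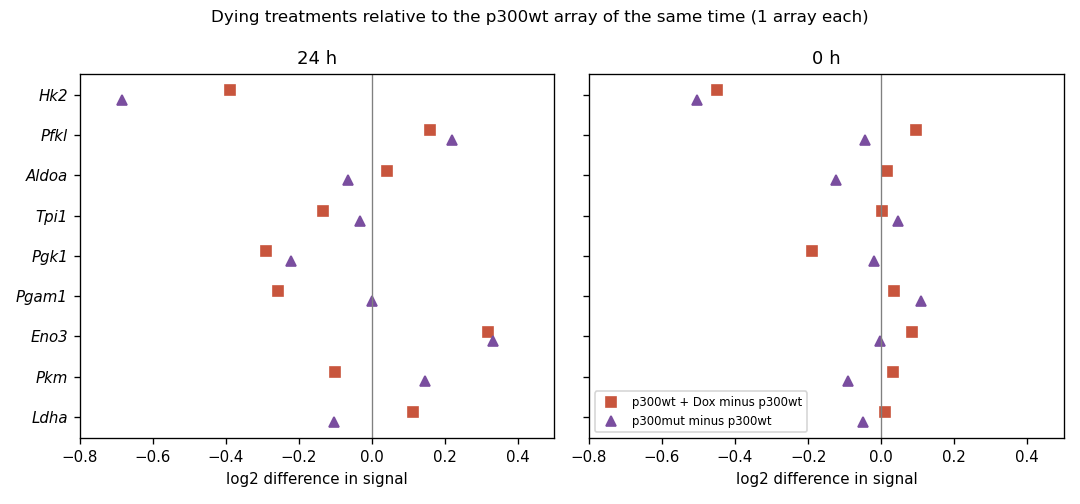
Log2 difference in signal (x axis) of the doxycycline and mutant arrays from the wild-type array of the same time, 24 h left and 0 h right, for the 9 enzymes. Hk2 lies left of 0 in all 4 cases (-0.39 and -0.69 at 24 h, -0.45 and -0.50 at 0 h), and Eno3 lies right of 0 at 24 h (0.32 and 0.33).

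Doxycycline and mutant p300 were compared without a test, as each has 1 array at a time. Doxycycline over mutant p300, the median log2 difference of the 9 enzymes was -0.06 at 24 h and 0.06 at 0 h. At 24 h it ranged from -0.26 for Pgam1 to 0.30 for Hk2, and 0 of 9 were at least 1.5-fold apart, against 10.3% of all genes.

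The lists of genes around glycolysis, with 2 to 15 tested genes each, held 1 call at 24 h, against 0.83% of all genes. It is given for its values and is not read as a result about the lists. Pdk4, a kinase that inhibits pyruvate dehydrogenase, read 188.3 with doxycycline and 197.6 with mutant p300, against 528.2 with wild-type p300. It differed by -1.45 on the log2 scale (adjusted p = 0.0305 by limma). Without the variance trend the adjusted p was 0.107 and without the filter 0.292. At 0 h it read 305.7 and 224.2 against 364.5. Slc2a1 read 225.7 and 285.6 against 483.3 at 24 h, a difference of -0.93 that did not pass (adjusted p = 0.125), and 353.6 and 408.5 against 531.8 at 0 h. Bpgm, which diverts a glycolytic intermediate to bisphosphoglycerate, read 96.7 and 140.5 against 322.3 (difference -1.47). Pfkp read 25.4 and 92.8 against 181.5 (-1.90) in its brighter probe set, and 38.7 and 77.3 against 173.4 (-1.66) in its second. None of these differences passed the test.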

How the data were processed

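Total RNA of 6 samples, 1 for each of 3 treatments at 0 h and 24 h, was biotin-labelled and put on oligonucleotide arrays by the submitters. The deposited values are linear signal intensity for each probe set, made with MAS5 per the submitters' processing notes, whose version is not given in the sources used. Of 12488 probe sets, 66 controls were left out. Symbols came from the array's annotation. The 6212 probe sets whose mean signal reached the median mean (75.2) were tested. Values below the 25th percentile (16.4) were raised to it before taking log2. A gene is represented by its brightest tested probe set. limma 3.58.1 under R 4.3.3 was used (variance trend, 2-sided, Benjamini-Hochberg over all 6212, threshold 0.05). The time effect had treatment as a block (2 residual degrees of freedom). The outcome effects came from a mean for each outcome and time (2), or from outcome with time as a term (3). The time test was tested on simulated data. All 9 enzymes and their sister isoforms were named, and from each list around them up to 4 called genes with the largest change. Members and lists were chosen with earlier results of these data known. Alternatives were other scalings, filters, floors, no trend, no block and leaving out each array. Upstream sequences are RefSeq's (GRCm38.p6) and matched all 9 genes.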

Additional observations from a re-analysis of the deposited data

How the results depend on the processing

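All 5 falls over time (Pgam1, Eno3, Ldha, Tpi1, Pgk1) kept their direction under the 14 alternatives; Pgam1, Eno3 and Ldha lost the call only without the filter, Tpi1 under 3 and Pgk1 under 7. Of the 9 enzymes the time test called 0 without the filter, and 3 to 5 when single arrays were left out. Over all probe sets it called 1009 (450 higher, 559 lower), 620 with scaling to spike-in controls (141 higher, 479 lower; median shift -0.12), 0 without the filter (2030 at an unadjusted p under 0.05), 514 with no treatment block and 479 to 1283 without single arrays (556 and 539 without the doxycycline array at 0 h or 24 h, 481 and 479 without the mutant one). At 24 h the outcome test called 48, against 419 with spike-in scaling, 192 without the filter, 11 without the trend and 45 to 351 without single arrays (at least 161 without any 1 doxycycline or mutant array); spike-in scaling called 2 of the 9 enzymes. At 0 h it called 0, against 5, 126 and 0 to 38 for spike-in scaling, no filter and single arrays. The interaction called 0, against 1, 245 and 6 to 43. Over both times it called 33, against 237, 10, 1 without the trend and 0 to 50 (0 when the 24 h wild-type array was dropped, 15 for either the 0 h doxycycline or the 24 h mutant array, 50 for the 24 h doxycycline array), with 1 of the 9 enzymes (Hk2) under spike-in scaling. Signs turned for values that were not called: over time Aldoa, to 0.0693 with quantile normalization, and at 24 h Pfkl (-0.18), Eno3 (-0.0393), Pkm (-0.34) and Ldha (-0.36) with spike-in scaling, where the median of all genes shifted by -0.37, and Ldha (-0.0183) with quantile normalization. Leaving out single arrays gave -0.0664 to 0.0411 for Aldoa, -0.10 to 0.145 for Pkm and -0.10 to 0.113 for Ldha at 24 h. The causes were not tested. The comparison at a time could not be fitted without that time's wild-type array. The time test paired the arrays of each treatment through its block. The outcome tests were not paired. At a single time the labels give nothing to pair the arrays by. The interaction was fitted from a mean for each outcome and time, so it did not use the pairing of a treatment's arrays at 0 h and 24 h.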

Other observations

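Genes that carry the products of glycolysis onward were measured in part. Of 15 tested genes of the tricarboxylic acid cycle 2 fell over 24 h, against 9.33% of all genes, and 0 rose, and the median log2 change of the 15 was -0.21; the share that fell is near that over all genes. Suclg2, a subunit of succinyl-CoA ligase, fell by 0.44 ± 0.14, and Cs, citrate synthase, by 0.31 ± 0.10 (SD, n = 3 each; limma adjusted p = 0.018 and 0.0479); neither call held without any 1 of the doxycycline or mutant arrays (0.0725 to 0.213), nor that of Cs without either wild-type array (0.0797 and 0.085). Of 5 tested genes of the shuttles that return NAD+ to the cytosol 1 fell, against 9.33% of all genes, and 4 did not pass. The one that fell was Gpd2, the mitochondrial glycerol phosphate dehydrogenase. Gpd2, on a probe set with the suffix _f_at, read 319.3 with doxycycline, 377.4 with mutant p300 and 204.6 with wild-type p300 at 24 h, against 593.2, 644.1 and 538.0 at 0 h, a change of -1.02 ± 0.33 (adjusted p = 0.0016). Of 7 tested switches of glycolysis and pyruvate entry 1 fell, against 9.33% of all genes. It was Pdk3, by 0.47 ± 0.04 (limma adjusted p = 0.0198, and 0.0878 to 0.103 without any 1 of the doxycycline or mutant arrays). Of 7 tested genes of glycogen metabolism and 3 of gluconeogenesis 0 were called by limma over time or at 24 h. Over all genes the shares were 9.33% lower and 7.67% higher over time, and 0.83% at 24 h. The largest values over time in these 2 lists were Phka1 at -0.23 and Pck2 at -0.43.

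Fbp1 and Fbp2 encode fructose bisphosphatases, which run the phosphofructokinase step backwards, and Fbp2 is the muscle form. Both lay below the filter and are described after their values were seen. Fbp2 read 10 with doxycycline and 4.5 with mutant p300 at 24 h, against 87.3 with wild-type p300, and 5.3 to 7.1 at 0 h. Fbp1 read 8.8 and 3.6 against 48.1, and 3.6 to 5.8 at 0 h. The other 5 arrays were under the floor of 16.4 for both genes, so the wild-type array at 24 h stood at least 5.32-fold above the floor for Fbp2 and 2.93-fold for Fbp1; with 1 array this has no replicate check.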
